A study of Mus musculus with 12 samples.

Results

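The genes described here encode the VEGF and angiopoietin ligands and their receptors: Vegfa, Vegfb, Vegfc, Pgf, Angpt1 and Angpt2 among the ligands, and Kdr, Flt1, Nrp1 and Tek among the receptors. They were taken by symbol, 10 of the 23234 symbols in the table of expression values, and each symbol had a single row. RNA sequencing was run on 12 libraries of total RNA from the C57BL/6 mouse strain. The 3 groups of 4 libraries were isolated islets, not transplanted, then islet grafts taken 60 days after transplantation into inguinal subcutaneous white adipose tissue, a depot of subcutaneous fat in the groin region, and the same kind of graft taken 120 days after. No genetic change and no drug is named for any group. Libraries are numbered 1 to 4 in each group. Nothing in the labels ties them to separate mice or preparations, so the p-values speak for the spread of these libraries, part of which may be technical.

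VEGF ligands are secreted growth factors of blood vessels. Vegfa binds the receptor tyrosine kinases Kdr, the main signalling receptor on endothelial cells, and Flt1, which binds the ligand more tightly but signals weakly; Vegfb and Pgf bind Flt1, and Vegfc binds Flt4 and Kdr. Nrp1 is a co-receptor that also binds semaphorins. Angpt1, made largely by cells around the vessel, activates the receptor Tek (also called Tie2) and stabilises vessels, whereas Angpt2, stored in endothelial cells, mostly opposes it. In the pancreas, beta cells make Vegfa and the islet has a dense network of fenestrated capillaries, which is cut off when islets are isolated and has to be rebuilt in a graft.

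Start-site windows of these genes are shown first, because Pgf and Nrp1 were the genes called in both grafts against isolated islets, and because Kdr and Flt1 are the receptor tyrosine kinases of Vegfa. The windows span 250 bases before to 50 bases after a gene's start, and come from RefSeq on GRCm38.p6, whereas the deposited values were made on mm9 and carry no coordinates. Capitals mark the core of the hypoxia response element, the pair of motifs ACGTG and GCGTG, searched on both strands (on the opposite strand they read CACGT and CACGC). The windows were chr12:85177264-85177563 on the minus strand for Pgf, chr8:128358823-128359122 on the plus strand for Nrp1, chr5:75978406-75978705 on the minus strand for Kdr and chr5:147725962-147726261 on the minus strand for Flt1.
Pgf: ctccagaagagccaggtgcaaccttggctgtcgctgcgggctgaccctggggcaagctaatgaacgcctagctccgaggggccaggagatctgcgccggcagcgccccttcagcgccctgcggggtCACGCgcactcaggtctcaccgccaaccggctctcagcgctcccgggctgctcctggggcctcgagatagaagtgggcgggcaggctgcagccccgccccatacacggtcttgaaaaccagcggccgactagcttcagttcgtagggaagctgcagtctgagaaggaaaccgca
Nrp1: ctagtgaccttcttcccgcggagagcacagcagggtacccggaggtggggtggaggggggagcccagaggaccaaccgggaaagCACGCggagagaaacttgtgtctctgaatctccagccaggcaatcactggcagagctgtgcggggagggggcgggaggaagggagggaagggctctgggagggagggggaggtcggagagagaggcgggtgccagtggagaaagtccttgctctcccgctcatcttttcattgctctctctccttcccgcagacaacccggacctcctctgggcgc
Kdr: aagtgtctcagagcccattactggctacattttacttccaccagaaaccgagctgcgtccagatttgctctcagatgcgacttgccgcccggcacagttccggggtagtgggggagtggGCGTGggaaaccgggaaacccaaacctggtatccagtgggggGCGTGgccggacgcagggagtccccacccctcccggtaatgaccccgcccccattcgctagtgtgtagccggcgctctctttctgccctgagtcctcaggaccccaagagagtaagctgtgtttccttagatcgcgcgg
Flt1: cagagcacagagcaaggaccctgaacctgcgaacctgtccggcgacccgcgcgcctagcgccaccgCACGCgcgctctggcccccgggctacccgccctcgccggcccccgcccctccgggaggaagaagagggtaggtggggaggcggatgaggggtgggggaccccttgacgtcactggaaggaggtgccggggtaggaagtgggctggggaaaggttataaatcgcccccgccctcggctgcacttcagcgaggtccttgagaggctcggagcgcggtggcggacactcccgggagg
A window was found for 8 of the 10 genes, all but Angpt1 and Angpt2, and Vegfa and Pgf had 2 each. Of these 10 windows, 6 held the motif, in 6 genes: Vegfa, Vegfb, Pgf, Kdr, Flt1 and Nrp1. Every window shown holds it, whereas those of Vegfc and Tek and the other window of Pgf, not shown, held none. For Vegfa, on the minus strand, both matches lay in the window chr17:46025114-46025413. That window lies downstream of the other, chr17:46032328-46032627, which held none. Whether the downstream window is used as a start in these tissues was not tested. Over all 32851 windows of 300 bases the share with the motif was 43.8%. Kdr held GCGTG at 2 positions, with first bases at -131 and -89 relative to the start. A match describes letters in a window and nothing about binding.

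Values are FPKM, mapped fragments corrected for the length of the gene and the size of the library, as the authors deposited them. The table carries no read counts, so the depth of each library is unknown and no counting error can be given. FPKM summed to between 396769 and 786366 per library. The insulin gene Ins2 is listed at 0 in 10 of the 12 libraries and at 293150 and 316265 FPKM in isolated islets 3 and 4, the libraries with the highest sums, and Ins1 is listed at 0 in day 60 graft 4 (such a 0 may be a failed estimate, and the sums take it as listed). Between 11502 and 13377 genes had 1 FPKM or more. Islet endocrine tissue was followed with 20 endocrine genes, none of them at 0 in any library, whose summed level was 10303 to 13094 FPKM in isolated islets, 4153 to 15488 FPKM in day 60 grafts and 14112 to 16294 FPKM in day 120 grafts. The exocrine pancreas was present in isolated islets, where 20 acinar genes summed to between 8983 and 103870 FPKM, and reached at most 24.6 FPKM in any graft, with 11 to 15 of the 20 genes at 0. Adipocyte, macrophage, fibroblast and red blood cell markers each had higher sums in all 8 grafts than in any isolated islet library; at day 60, 9 of 10 adipocyte, 9 of 10 macrophage and 10 of 10 fibroblast genes were called higher. The day 60 graft numbered 1 stood apart: its 10 adipocyte genes summed to 10921 FPKM, against 297 to 3379 FPKM in the other day 60 grafts, its 10 macrophage genes to 4510 FPKM, against 460 to 1153 FPKM, and its endocrine sum was the lowest of all 12 libraries. In tissue RNA such as this, more cells of a type and more RNA per cell cannot be told apart.

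Every one of the 10 genes met the filter (1 FPKM or more in 4 libraries or more) and so was among the 13433 genes tested. No value of any of them was listed at 0. Angpt1 passed largely through the grafts: 1 isolated islet library and 4 graft libraries reached 1 FPKM. Changes are differences of mean log2(FPKM + 1), which understate the change of genes near 1 FPKM. A gene is called when its p-value from limma, two-sided and Benjamini-Hochberg adjusted over all 13433 genes, is under 0.05.

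In day 60 grafts 5 of the 10 genes were called against isolated islets, all higher: Vegfc, Tek, Nrp1, Pgf and Vegfb. In the same comparison 43.7% of all genes tested were called and 31.3% were called higher. In day 120 grafts 2 of the 10, Pgf and Nrp1, were called higher than in isolated islets, against 31.4% of all genes called in either direction and 24.3% called higher. The median change of the 10 genes was 0.84 at day 60 and 0.61 at day 120 on the log2 scale, against 0.27 and 0.30 over all genes tested. Both comparisons share the isolated islets. Leaving out 1 library changed these counts: at day 60, 3 were called without isolated islet 2, 3 or 4 or day 120 graft 3, and at day 120, 5 were called without day 60 graft 1, 4 without isolated islet 1, and 1 without isolated islet 2, 3 or 4, day 60 graft 3 or any one of the day 120 grafts. With the replicate number as a block, 4 were called at day 120. Libraries of the same number deviated together only between the grafts of both times, not between grafts and isolated islets. Calls in the lower direction appeared under some other settings: Kdr at day 60 after scaling to the library sum without hormone and acinar genes, with array weights or without day 60 graft 4, and Angpt2 at both times with quantile normalization or array weights and at day 120 without isolated islet 1, alone or together with day 60 graft 1. None of the 10 genes was called between day 120 and day 60 grafts by limma, 0 of them had an unadjusted p under 0.05, and 2 of all genes tested (0.0149%) were called.

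**Figure D1:**
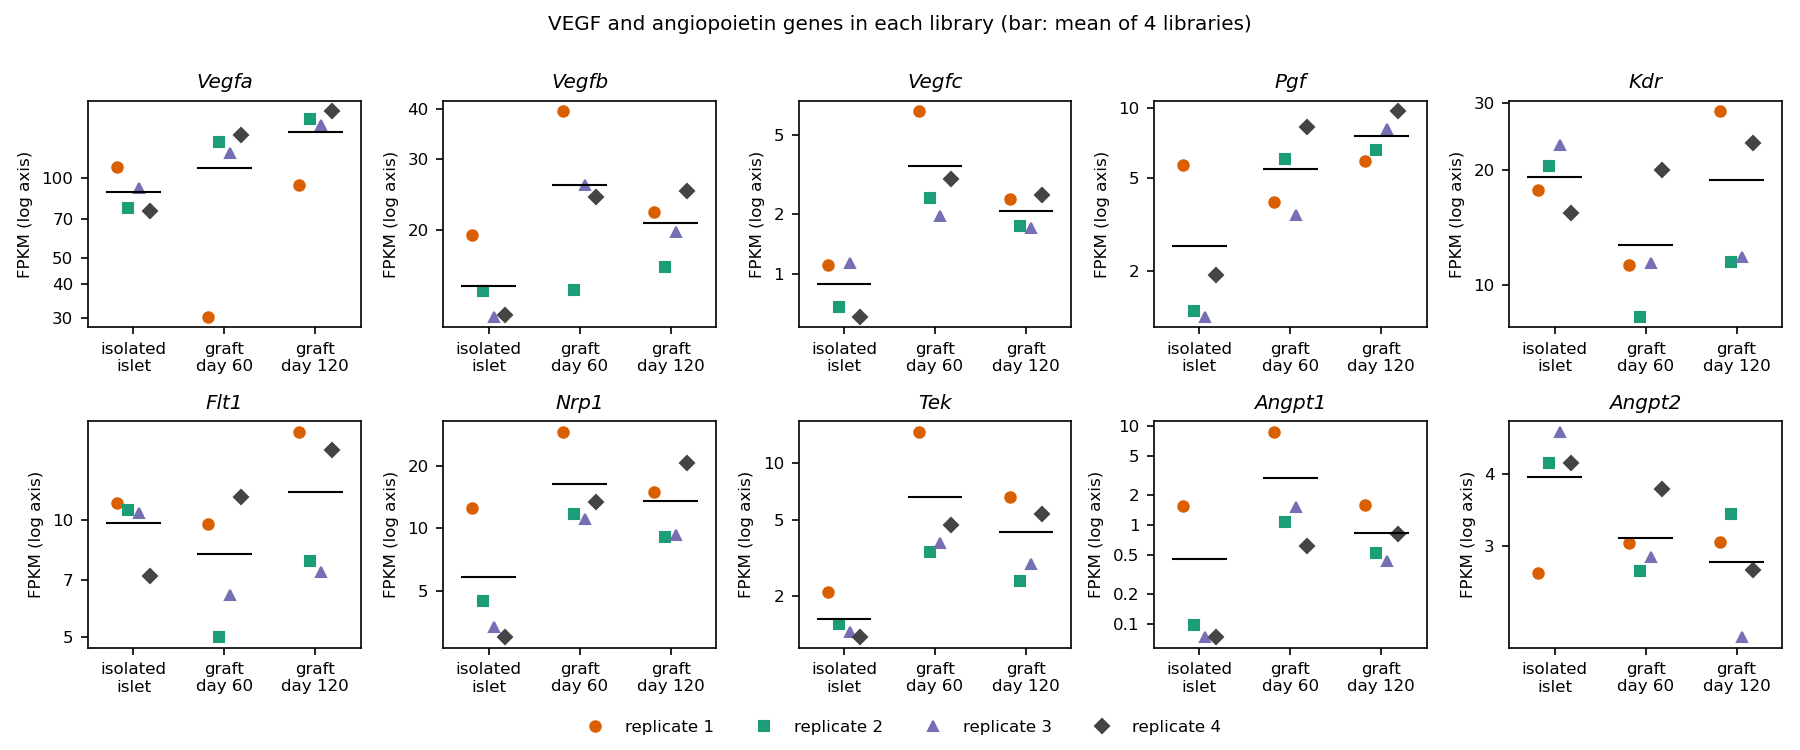
FPKM on a log axis for each of the 10 genes, with 1 point per library, marked by replicate number, and a bar at the mean of 4 libraries; isolated islets, day 60 grafts and day 120 grafts run left to right. Vegfc and Tek are higher in every graft than in every isolated islet library, while Kdr and Flt1 overlap between all groups; the day 60 graft numbered 1 is the highest for Tek, Nrp1 and Angpt1 and the lowest for Vegfa.

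Vegfa, the main ligand, was the most abundant of the 10 genes in every group by mean FPKM per length. It had 110, 76.9, 91.9 and 74.9 FPKM in isolated islets numbered 1 to 4. It had 30.2, 137, 124 and 145 FPKM in the day 60 grafts and 94.0, 166, 157 and 177 FPKM in the day 120 grafts. Grafts 2, 3 and 4 of both times lay above every isolated islet library, while graft 1 was the lowest of its group both times, and the groups overlapped. The change in day 60 grafts against isolated islets was 0.09 on the log2 scale (SE 0.419, limma adjusted p = 0.877, 95% interval -0.82 to 1.00). For day 120 grafts it was 0.72 (SE 0.419, limma adjusted p = 0.198). Without the day 60 graft numbered 1 the fit called Vegfa at both times, with changes of 0.62 (limma adjusted p = 0.0319) at day 60 and 0.72 (limma adjusted p = 0.0123) at day 120. That graft is not part of the day 120 comparison, so there the change stayed and the shared estimate of the spread differed. Counting these, Vegfa was called in 3 of 22 other settings at day 60 and 4 of 22 at day 120, with a limma adjusted p of up to 0.981 and 0.445. The direction at day 60 depended on the scaling: it was -0.07 with upper-quartile scaling, -0.27 after scaling to the library sum without hormone and acinar genes, and -0.06 with quantile normalization.

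Vegfa was also set against the endocrine markers of its own library, as the difference between log2(FPKM + 1) of Vegfa and the mean of the 20 endocrine genes, which does not depend on library scaling. In the day 60 grafts it averaged -0.45 ± 0.30, against -0.73 ± 0.14 in isolated islets (SD, n = 4 each), a difference of 0.28 (exact two-sided permutation p = 0.143, 0.214 adjusted over 12 such tests). Day 120 grafts averaged -0.55 ± 0.38, a difference of 0.18 from isolated islets (exact permutation p = 0.457, adjusted 0.549). The day 60 graft numbered 1, with the lowest Vegfa level, had -0.81, inside the range of isolated islets from -0.87 to -0.58. Both its endocrine sum and its Vegfa level were the lowest of the 12 libraries. The day 120 graft numbered 1 had -1.12, below all 11 other libraries, with an endocrine sum of 14112 FPKM. Without it the day 120 difference was 0.37, and without day 60 graft 1 the day 60 difference was 0.40 (exact permutation p = 0.0571 for both, the smallest that 3 against 4 libraries can give). These omissions are named because of their values. Leaving out any other single library gave an exact permutation p from 0.114 to 0.286 at day 60 and from 0.4 to 0.8 at day 120.

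**Figure D2:**
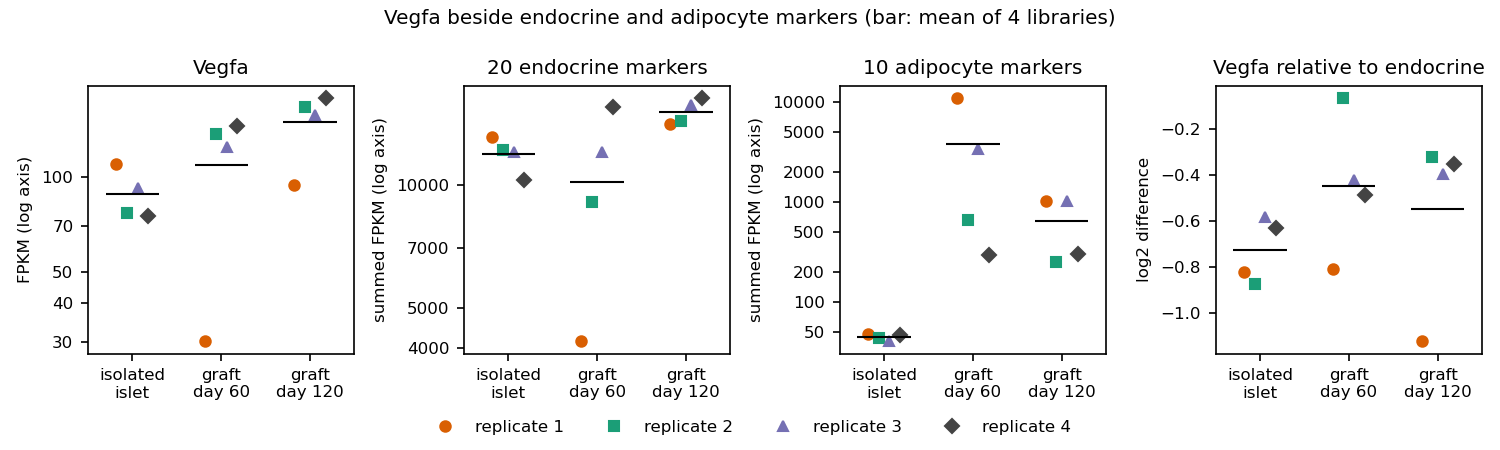
Vegfa (FPKM), the summed FPKM of 20 endocrine and of 10 adipocyte markers (log axes), and Vegfa relative to the endocrine markers (log2 difference), with 1 point per library and a bar at the mean. The day 60 graft numbered 1 is lowest for Vegfa, at 30.2 FPKM, lowest for the endocrine sum, at 4153 FPKM, and highest for the adipocyte sum, at 10921 FPKM.

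Pgf, placental growth factor, a ligand of Flt1, was the gene whose call against isolated islets held under all 22 other settings at day 120. It had 5.89, 6.61, 8.11 and 9.69 FPKM in day 120 grafts and 5.67, 1.34, 1.26 and 1.92 FPKM in isolated islets. Every day 120 graft was above every isolated islet library, of which replicate 1 lay well above the other 3. Pgf changed by 1.41 on the log2 scale (SE 0.339, limma adjusted p = 0.0113). In day 60 grafts Pgf had 3.94, 6.06, 3.45 and 8.32 FPKM, a log2 change of 0.95 from isolated islets (SE 0.339, limma adjusted p = 0.0376), with groups that overlapped through isolated islet replicate 1. That call was lost when 1 of 6 libraries was left out: isolated islets 2, 3 or 4 (limma adjusted p 0.108, 0.113 and 0.0858), day 60 grafts 2 or 4 (0.0786 and 0.102) or day 120 graft 3 (0.0504). It was also lost with no filter, after quantile normalization, with upper-quartile scaling, after scaling to the sum without hormone and acinar genes and with only the libraries compared (limma adjusted p 0.0527, 0.189, 0.0683, 0.163 and 0.08), so that it held in 11 of 22 other settings.

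Vegfc, a ligand best known from lymphatic vessels, was scarce in isolated islets and higher in every graft. It had 6.61, 2.42, 1.97 and 3.03 FPKM in day 60 grafts, against 1.12, 0.682, 1.14 and 0.609 FPKM in isolated islets, with no overlap. Vegfc changed by 1.17 on the log2 scale (SE 0.264, limma adjusted p = 0.00471). Day 120 grafts had 2.40, 1.75, 1.71 and 2.501 FPKM, again above every isolated islet library, with a log2 change of 0.71 that missed the threshold (SE 0.264, limma adjusted p = 0.0554). It passed with the replicate number as a block (limma adjusted p = 0.0436), which does not pair grafts with isolated islets. It passed as well without the day 60 graft numbered 1 (limma adjusted p = 0.0069). Counting these, Vegfc at day 120 passed in 6 of 22 other settings, with a limma adjusted p of up to 0.541. Markers of lymphatic endothelium, 6 genes of which at most 1 was at 0 in a library, summed to 12.7 to 20.04 FPKM in isolated islets, 15.1 to 41.1 FPKM in day 60 grafts and 14.6 to 55.5 FPKM in day 120 grafts. Prox1 alone gave 7.5 to 11.0 FPKM of the isolated islet sums, against 1.03 to 3.09 FPKM at day 60 and 2.41 to 4.76 FPKM at day 120. The list did not move one way: Lyve1 and Pdpn were called higher and Prox1 lower at day 60 (log2 changes 1.59, 1.44 and -1.78, limma adjusted p = 0.00908, 0.0299 and 0.000314), and Ccl21a and Lyve1 higher and Prox1 lower at day 120 (3.46, 1.20 and -1.20, limma adjusted p = 0.0185, 0.0421 and 0.00479). Their part in the Vegfc result was not tested.

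Vegfb, a ligand of Flt1 expressed widely in tissues that burn fatty acids, had 39.4, 14.3, 25.9 and 24.2 FPKM in day 60 grafts and 19.4, 14.2, 12.2 and 12.3 FPKM in isolated islets. The groups overlapped, since the day 60 graft numbered 2 lay among the isolated islets. Vegfb changed by 0.73 on the log2 scale (SE 0.264, limma adjusted p = 0.0392). It was lost without any one of isolated islets 2, 3 or 4 (limma adjusted p 0.0803, 0.103 and 0.1003), day 60 grafts 1, 3 or 4 (0.0826, 0.0820 and 0.0629) or day 120 graft 3 (0.0528). The same 5 settings that ended the Pgf call ended this one (limma adjusted p 0.053 to 0.189), and it held in 10 of 22. At day 120 it had 22.3, 16.3, 19.8 and 25.1 FPKM and a log2 change of 0.50 (SE 0.264, limma adjusted p = 0.158).

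**Figure D3:**
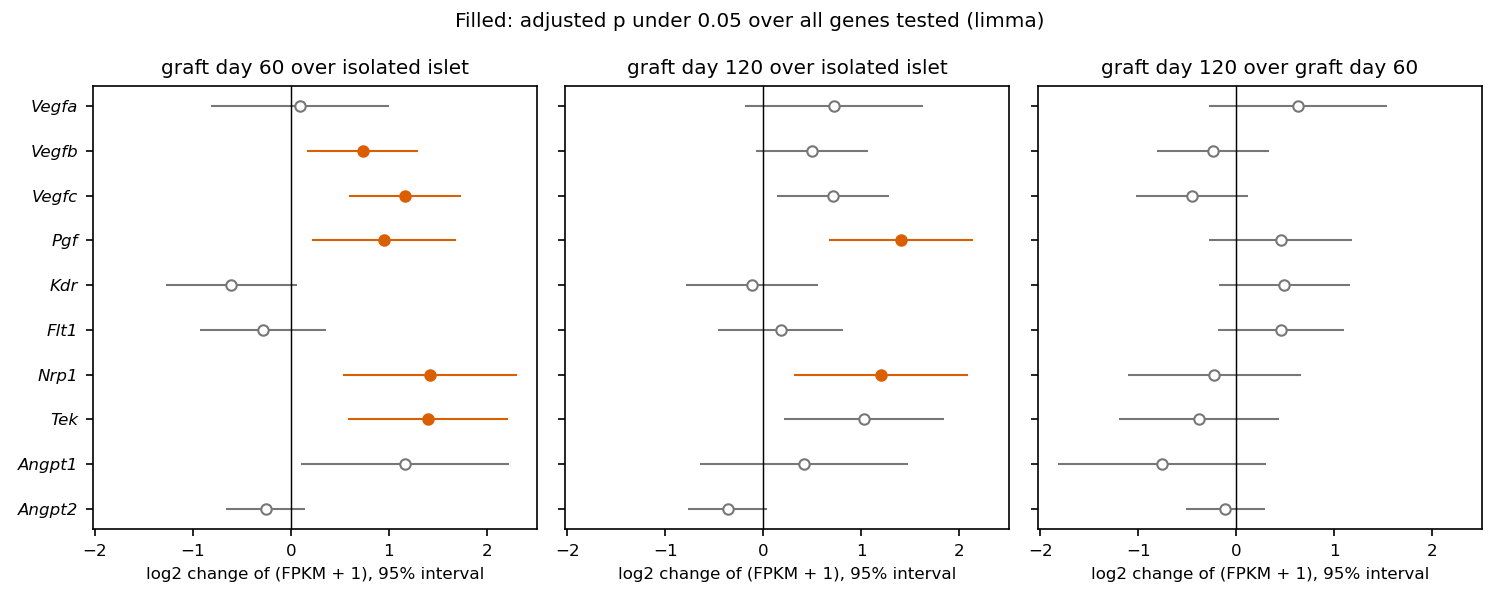
Log2 change of (FPKM + 1) with its 95% interval from limma for the 10 genes, in day 60 grafts over isolated islets, day 120 grafts over isolated islets and day 120 over day 60 grafts; filled points have an adjusted p under 0.05. The 5 called genes at day 60 and the 2 at day 120 all lie to the right of 0, and every interval for day 120 over day 60 grafts includes 0.

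Kdr, the main VEGF receptor of endothelium, was not called at either time in the fit described. It had 11.3, 8.24, 11.4 and 20 FPKM in day 60 grafts, against 17.7, 20.5, 23.2 and 15.4 FPKM in isolated islets. Only the day 60 graft numbered 4 reached the range of isolated islets. The log2 change was -0.61 (SE 0.310, limma adjusted p = 0.127, 95% interval -1.28 to 0.06), and it was called lower in 3 of 22 other settings: without day 60 graft 4 (-0.83, limma adjusted p = 0.0426), after scaling to the sum without hormone and acinar genes (-0.95, limma adjusted p = 0.0373) and with array weights (-0.67, limma adjusted p = 0.0274). At day 120 Kdr had 28.5, 11.5, 11.8 and 23.4 FPKM, with replicates 1 and 4 above all isolated islet libraries and replicates 2 and 3 below all of them. Its change was -0.12 (SE 0.310, limma adjusted p = 0.793).

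Flt1, the high-affinity VEGF receptor that also binds Pgf and Vegfb, had the same higher pair in day 120 grafts, replicates 1 and 4. It had 11.1, 10.6, 10.4 and 7.18 FPKM in isolated islets, 9.77, 4.99, 6.42 and 11.4 FPKM in day 60 grafts and 16.9, 7.84, 7.33 and 15.2 FPKM in day 120 grafts, and the groups overlapped. Its log2 change was -0.28 (SE 0.296, limma adjusted p = 0.453) at day 60 and 0.17 (SE 0.296, limma adjusted p = 0.669) at day 120. The log2 ratio of Kdr to Flt1 averaged 0.90 ± 0.20 in isolated islets, then 0.58 ± 0.27 in day 60 grafts and 0.61 ± 0.09 in day 120 grafts (SD, n = 4 each). Its differences from isolated islets, -0.32 and -0.29, did not pass (exact permutation p = 0.0857 and 0.0571, adjusted 0.206 and 0.171).

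Tek, the receptor of the angiopoietins, was higher in every graft than in every isolated islet library at both times. It had 14.6, 3.38, 3.79 and 4.70 FPKM in day 60 grafts, against 2.09, 1.42, 1.29 and 1.21 FPKM in isolated islets. Tek changed by 1.40 on the log2 scale (SE 0.377, limma adjusted p = 0.0107), and it stayed called in 21 of 22 other settings. Tek in day 120 grafts had 6.60, 2.39, 2.93 and 5.41 FPKM, with a log2 change of 1.02 that missed the threshold (SE 0.377, limma adjusted p = 0.054). It passed with the replicate number as a block, which does not pair grafts with isolated islets (limma adjusted p = 0.0174), and when isolated islet replicate 1 or the day 60 graft numbered 1 was left out (limma adjusted p 0.0484 and 0.0062). Counting these, Tek at day 120 passed in 8 of 22 other settings, with a limma adjusted p of up to 0.266.

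Nrp1, the co-receptor of VEGF and semaphorins, had 29.1, 11.8, 11.05 and 13.4 FPKM in day 60 grafts and 12.52, 4.49, 3.36 and 3.01 FPKM in isolated islets. Isolated islet replicate 1 lay within the range of the grafts, and the other 3 lay below all of them. Nrp1 changed by 1.42 on the log2 scale (SE 0.409, limma adjusted p = 0.0149), called under all 22 other settings. At day 120 Nrp1 had 15.0, 9.08, 9.35 and 20.6 FPKM and a log2 change of 1.20 (SE 0.409, limma adjusted p = 0.0416). That call was lost without any one of isolated islets 2, 3 or 4 (limma adjusted p 0.0973, 0.116 and 0.123), day 60 graft 3 (0.0501) or any one of the 4 day 120 grafts (0.0528 to 0.117). It was also lost with no filter and under each of the 3 scalings (limma adjusted p 0.0523 to 0.0847), and held in 10 of 22 other settings.

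The receptors were set beside 20 endothelial markers, none of which was at 0 in any library. Of these, 12 were called higher in day 60 grafts and 11 in day 120 grafts, and none lower; the median log2 changes were 1.20 and 1.08. Cldn5, a tight-junction protein of endothelium, changed by 2.54 at day 60 (limma adjusted p = 0.00456), and Gpihbp1, the capillary anchor of lipoprotein lipase, by 2.07 (limma adjusted p = 0.000325). Pecam1, Cdh5, Eng, Robo4 and Plvap were among those not called at either time: Plvap, a component of the diaphragms of fenestrated capillaries, had a log2 change of -0.12 at day 60 (limma adjusted p = 0.8288) and 0.11 at day 120 (limma adjusted p = 0.864). The summed level of the 20 genes was 179 to 242 FPKM in isolated islets, 228 to 641 FPKM in day 60 grafts and 192 to 431 FPKM in day 120 grafts. Among day 120 grafts it was 410 and 431 FPKM in replicates 1 and 4, against 192 and 214 FPKM in replicates 2 and 3, the same split of libraries as for Kdr, Flt1, Tek and Nrp1. Cd34, one of the markers, is also known from stromal cells of fat.

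Kdr averaged lower relative to these markers in grafts. The difference between log2(FPKM + 1) of Kdr and the mean of the 20 genes was -0.96, -0.04, 0.29 and 0.59 in day 60 grafts, against 1.68, 1.63, 1.84 and 1.59 in isolated islets. The means, -0.03 ± 0.67 and 1.68 ± 0.11 (SD, n = 4 each), differed by -1.71 (exact two-sided permutation p = 0.0286, the smallest that 4 against 4 libraries can give, adjusted 0.114 over 12 tests). The day 120 values were 0.92, 0.79, 0.61 and 0.73, a difference of -0.92 from isolated islets (exact permutation p = 0.0286, adjusted 0.114). Day 120 grafts were above day 60 grafts by 0.79 (exact permutation p = 0.0286, adjusted 0.114), and the paired exact test over replicate numbers gave p = 0.125, the smallest that 4 pairs allow. The groups overlapped in none of these 3 comparisons, but none passed the adjustment over the 12 tests.

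The size of the difference from isolated islets depended on the marker, and at day 120 so did its direction. With each marker alone in place of the list, Kdr was lower in day 60 grafts than in isolated islets against 20 of 20 genes, and in day 120 grafts against 17 of 20. The exceptions at day 120 were Cdh5, Eng and Robo4, with differences of 0.47, 0.30 and 0.21. Against Cdh5 alone the day 60 difference was -0.39 (exact permutation p = 0.571), and against Pecam1 alone it was -1.23 (exact permutation p = 0.0286). Flt1 relative to the list averaged 0.78 ± 0.20 in isolated islets, then -0.61 ± 0.41 in day 60 grafts and 0.15 ± 0.13 in day 120 grafts, and Tek averaged -1.33 ± 0.30, -1.03 ± 0.29 and -1.11 ± 0.07 in the same groups (SD, n = 4 each). These values of Flt1 and Tek are given without a test.

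**Figure D4:**
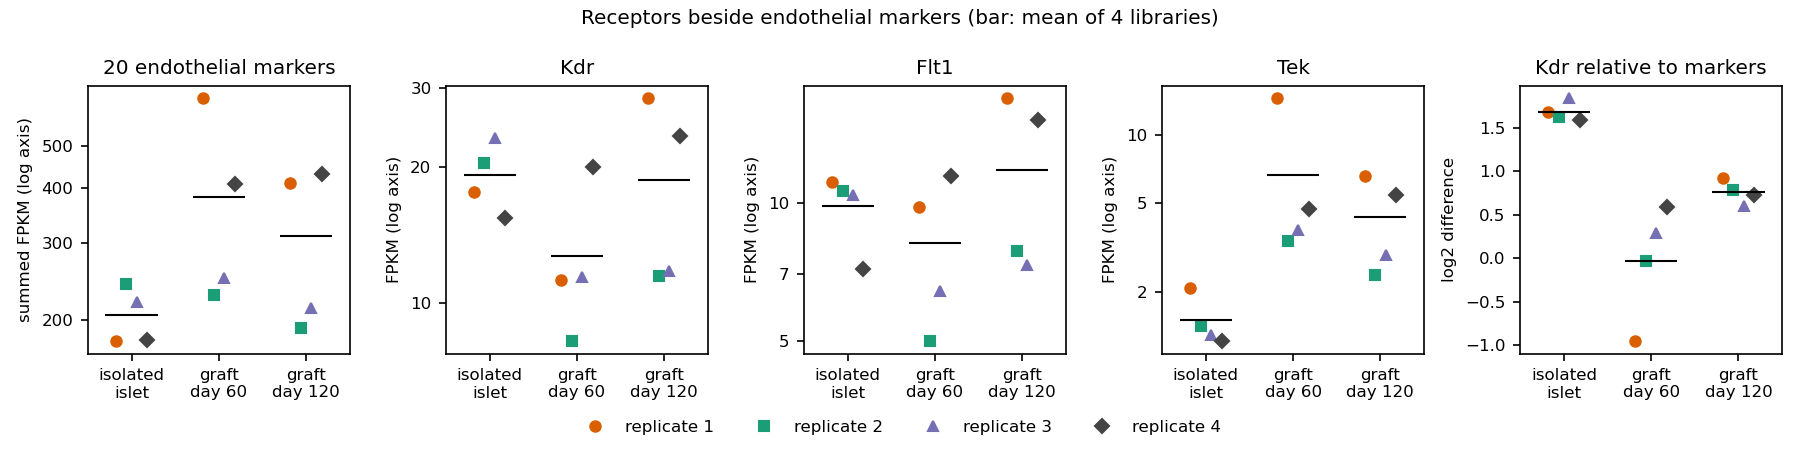
Summed FPKM of 20 endothelial markers and FPKM of Kdr, Flt1 and Tek (log axes), and Kdr relative to the markers (log2 difference), with 1 point per library and a bar at the mean. Relative Kdr lies between 1.59 and 1.84 in isolated islets, at most 0.59 in day 60 grafts and between 0.61 and 0.92 in day 120 grafts; replicates 1 and 4 are the higher pair of day 120 grafts in the marker sum, Kdr, Flt1 and Tek.

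Angpt1, the activating ligand of Tek, was the least abundant of the 10 genes by mean FPKM in every group. It had 8.85, 1.07, 1.54 and 0.621 FPKM in day 60 grafts, against 1.58, 0.099, 0.074 and 0.075 FPKM in isolated islets. Replicate 1 was the highest library of each group, and the groups overlapped through it. The log2 change was 1.17 (SE 0.490, limma adjusted p = 0.069), and it was called in 6 of 22 other settings, with changes from 0.60 to 2.56 over the 22. Among the 6 were a pseudocount of 0.1 FPKM, which gave 2.56 (limma adjusted p = 0.0276), array weights (limma adjusted p = 0.000198) and the replicate number as a block, which does not pair grafts with isolated islets (limma adjusted p = 0.00891). It also passed without isolated islet replicate 1 (limma adjusted p = 0.0279), without the day 60 graft numbered 4 (limma adjusted p = 0.0329) and without isolated islet 1 and day 60 graft 1 together (limma adjusted p = 0.00577). At day 120 Angpt1 had 1.60, 0.525, 0.434 and 0.824 FPKM and a log2 change of 0.42 (SE 0.490, limma adjusted p = 0.529).

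Angpt2, the ligand that mostly opposes Angpt1, had 2.69, 4.17, 4.73 and 4.18 FPKM in isolated islets, 3.04, 2.71, 2.88 and 3.77 FPKM in day 60 grafts and 3.05, 3.401, 2.09 and 2.73 FPKM in day 120 grafts. Isolated islets 2, 3 and 4 lay above every graft, and replicate 1 lay among them. The log2 changes were -0.26 (SE 0.188, limma adjusted p = 0.283) at day 60 and -0.37 (SE 0.188, limma adjusted p = 0.148) at day 120; without isolated islet replicate 1 the day 120 change was -0.50 (limma adjusted p = 0.0319). The log2 ratio of Angpt2 to Angpt1 averaged 1.86 ± 0.90 in isolated islets, then 0.43 ± 1.21 in day 60 grafts and 1.08 ± 0.36 in day 120 grafts (SD, n = 4 each). Its differences from isolated islets were -1.43 and -0.78 (exact permutation p = 0.114 and 0.143, adjusted 0.214 for both). These sizes depend on the pseudocount, and with 0.1 FPKM they were -2.88 and -1.88 (exact permutation p = 0.114 and 0.143). The day 60 difference was -1.87 without isolated islet 1 and -0.85 without day 60 graft 1 (exact permutation p = 0.0571 and 0.229). Without isolated islet 1 the day 120 difference was -1.23 (exact permutation p = 0.0571). The smallest p that 3 against 4 libraries can give is 0.0571.

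Mural cells, a source of Angpt1, were followed with 12 pericyte and smooth muscle markers, which summed to 47.0 to 60.4 FPKM in isolated islets, 104 to 316 FPKM in day 60 grafts and 56.3 to 147 FPKM in day 120 grafts. The highest sum was in the day 60 graft numbered 1, which also had the highest Angpt1, Tek and Nrp1. That is not particular to mural markers: the same graft had the highest endothelial, fibroblast, adipocyte, macrophage and red blood cell sums. Of 11 tested, 5 were called higher at day 60 and 2 at day 120, against 31.3% and 24.3% of all genes tested. Their part in the Angpt1 and Nrp1 results was not tested.

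By mean FPKM per length the order in isolated islets was Vegfa, Kdr, Vegfb, Flt1, Nrp1, Angpt2, Pgf, Tek, Vegfc and Angpt1. Neighbours whose libraries did not overlap were Vegfa and Kdr, Vegfb and Flt1, and Tek and Vegfc. In day 60 grafts it was Vegfa, Vegfb, Nrp1, Kdr, Flt1, Tek, Pgf, Vegfc, Angpt2 and Angpt1, and all neighbours overlapped. In day 120 grafts it was Vegfa, Vegfb, Kdr, Nrp1, Flt1, Pgf, Tek, Angpt2, Vegfc and Angpt1, where only Vegfa and Vegfb, and Vegfc and Angpt1, did not overlap as neighbours. Vegfa made up 57.2% to 62.0% of the summed FPKM of the 10 genes in isolated islets, a share that ran from 19.3% to 71.3% in day 60 grafts and 47.9% to 73.6% in day 120 grafts.

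Without overlap, 2 of the 10 genes were higher in day 60 grafts than in isolated islets (Vegfc and Tek) and 3 in day 120 grafts (Vegfc, Pgf and Tek). Among all genes tested 22% were higher without overlap at day 60 and 28.3% at day 120. None of the 10 separated day 120 from day 60 grafts, against 4.29% of all genes. Between those 2 times the widest interval was that of Angpt1, a log2 change of -0.75 with a 95% interval from -1.81 to 0.31, and the narrowest that of Angpt2, -0.11 with an interval from -0.51 to 0.30. Vegfa had 0.63 (95% interval -0.28 to 1.54) and Kdr 0.49 (95% interval -0.18 to 1.16).

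The genes nearest to each of the 10 in pattern were found as those with the smallest root mean square difference of log2(FPKM + 1), each centred on its own mean, over the 12 libraries, among 11966 genes. Vegfa lay closest to Paxip1, Wnk4 and Abcc8, at 0.141 to 0.152, where Vegfa itself varied by 0.667 around its mean. Abcc8 encodes the sulfonylurea receptor of the beta cell potassium channel and is 1 of the 20 endocrine genes that Vegfa was set against above. It averaged 125 ± 33.3 FPKM in isolated islets, with 152 ± 77.9 FPKM in day 60 grafts and 218 ± 32.9 FPKM in day 120 grafts (SD, n = 4 each). Tek lay closest to Hoxb7, Lhpp and Nos3, at 0.155 to 0.184. Vegfb lay closest to Capns1, Lap3 and Hmox2, at 0.0778 to 0.118, the closest match of the 10. The nearest genes of Kdr were Grlf1, Upp1 and Myo1d (0.231 to 0.233), and of Flt1 Zswim1, Ext2 and Fam20b (0.21 to 0.219). Those of Angpt2 were Cdv3, Exosc10 and Eif4e (0.109 to 0.123). These matches were distant relative to the variation of Kdr, Flt1 and Angpt2 themselves, 0.496, 0.44 and 0.246. The nearest genes of Pgf were Spice1, Tmco6 and Bambi, and of Nrp1 Nfe2l2, Rnase4 and H6pd. Those of Vegfc were Syt15, Itpripl2 and Pira2, and of Angpt1 Pygb, Myof and Tlr4.

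Other genes of the same pathways were followed from lists, whose counts stand beside the 43.7% of all genes called at day 60 (31.3% higher) and the 31.4% called at day 120 (24.3% higher). Among the other ligands, receptors and partners, 3 of 8 tested were called higher and 1 lower at day 60, and 1 each way at day 120. Figf, the ligand also known as VEGF-D, had 19.7, 1.75, 5.24 and 3.20 FPKM in day 60 grafts, against 0.183 FPKM at most in isolated islets, where replicate 1 is listed at 0 (log2 change 2.51, limma adjusted p = 0.00194). It was also called at day 120 (1.39, limma adjusted p = 0.04). Itgav, an integrin subunit, was lower at both times, by log2 changes of -1.65 and -1.31 (limma adjusted p = 0.000925 and 0.00581). Ptprb, the phosphatase that restrains Tek, was higher at day 60 (1.09, limma adjusted p = 0.0201), as was Gpc1 (0.89, limma adjusted p = 0.0407).

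Of 19 signalling genes downstream of VEGF and Tie2 receptors, 5 were called higher and 4 lower at day 60, and 5 higher and 2 lower at day 120, which is near the share over all genes at both times. Nos3, endothelial nitric oxide synthase, had 8.43, 2.30, 2.87 and 2.93 FPKM in day 60 grafts and 0.915, 0.506, 0.318 and 0.447 FPKM in isolated islets (log2 change 1.61, limma adjusted p = 0.00203). Nfatc1, a calcineurin-regulated transcription factor, changed by 0.73 at day 60 (limma adjusted p = 0.0041) and 0.86 at day 120 (limma adjusted p = 0.00395). The adaptor gene Shb was lower, by -1.93 and -1.42 (limma adjusted p = 0.00018 and 0.0024), and so was the kinase gene Prkca, by -1.29 and -0.64 (limma adjusted p = 0.00145 and 0.0496).

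Oxygen sensing genes, which control Vegfa in many cells, gave 0 calls among 8 by limma at either time; 1 of the 8, Epas1, had an unadjusted p under 0.05 at day 60. This gene, which encodes an oxygen-regulated transcription factor, had a log2 change of 0.92 at day 60 (limma adjusted p = 0.054). Among semaphorins and plexins that act through neuropilins, 4 of 9 were called higher and 2 lower at day 60, and 1, Sema3e, was called lower at day 120 (-1.06, limma adjusted p = 0.00559). Sema3g was higher at day 60 (1.76, limma adjusted p = 0.00714), as was Sema3b (1.35, limma adjusted p = 0.0149), while Plxna2 was lower (-0.77, limma adjusted p = 0.0109).

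Of 16 other angiogenic factors, 8 were called higher and 2 lower at day 60, and 7 higher and 1 lower at day 120. Fgf1, a fibroblast growth factor, had 2.44, 2.08, 1.64 and 1.54 FPKM in isolated islets, 8.29, 6.68, 8.08 and 6.96 FPKM in day 60 grafts and 8.23, 9.24, 8.84 and 9.67 FPKM in day 120 grafts. Its log2 changes were 1.55 and 1.78 (limma adjusted p = 4.07e-05 and 1.32e-05), with no overlap and with graft libraries close to each other, the day 60 graft numbered 1 included. The chemokine gene Cxcl12 changed by 2.99 and 1.93 (limma adjusted p = 0.000254 and 0.00501). Of the thrombospondins, inhibitors of angiogenesis, Thbs2 was higher, by 2.78 and 1.84 (limma adjusted p = 0.000863 and 0.0113), and Thbs1 was lower, by -2.34 and -2.23 (limma adjusted p = 0.000916 and 0.00275). None of the genes in these lists was called between day 120 and day 60 grafts.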

How the data were processed

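Total RNA, 10 ng per sample, was made into cDNA with a SMARTer Ultra Low Input kit and sequenced on a HiSeq 1500 after 15 PCR cycles, per the labels' protocols. The authors deposited FPKM per gene symbol and library, made with TopHat2 and Cufflinks 2.1.1 on mm9, per the submitters' processing notes; the annotation, options and any scaling between libraries are not given in the sources used here. Groups came from the sample titles. The genes and lists described here were chosen with earlier results of these data known.

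Genes with at least 1 FPKM in at least 4 libraries were tested as log2(FPKM + 1) in a fit of limma 3.58.1 (R 4.3.3, statmod 1.5.0) to the 12 libraries together. The fit had 1 term, the group, used a trend of variance on mean and robust variances, and took Benjamini-Hochberg adjustment over 13433 genes (9801 were not tested). Ratios within a library were compared by exact two-sided permutation (70 assignments), 12 tests in all. Named pathway genes were up to 4 per list with the smallest p in any comparison; other list genes named were chosen after their values were seen. The limma step was checked on simulated data.

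Same-numbered day 60 and day 120 grafts deviated together from their group means (correlations over tested genes from 0.18 to 0.442). Grafts of different numbers gave -0.383 to 0.0982. The labels state no pairing, so a shared origin of same-numbered grafts is not established. Between grafts and isolated islets of the same number the correlations ran from -0.08 to 0.02. Alternatives were the pseudocount (0.1), no filter, 3 scalings, the replicate block, only the libraries compared, array weights, another variance model and leaving libraries out.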

Additional observations from a re-analysis of the deposited data

Results flagged for a closer look

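Single libraries stood apart in 8 of 42 sets of 4 libraries examined, all of them libraries numbered 1. The cut-off flags about 1 in 20 sets of independent normal values. These sets share libraries, so that rate is no reference for the count. The day 60 graft numbered 1 was far above the other day 60 grafts for Angpt1 (8.85 FPKM), Tek (14.6 FPKM) and Nrp1 (29.1 FPKM). Isolated islet replicate 1 was far above the other isolated islets for Pgf (5.67 FPKM), Angpt1 (1.58 FPKM) and Nrp1 (12.52 FPKM), and its log2 ratio of Angpt2 to Angpt1, 0.52, was far below theirs. The day 120 graft numbered 1 had Vegfa relative to the endocrine markers at -1.12, far below the other day 120 grafts. Kdr relative to the endothelial markers was set apart by time after transplantation: it averaged 0.79 higher (log2) in day 120 than in day 60 grafts, with no overlap (exact permutation p = 0.0286, 0.114 adjusted over 12 tests, 0.125 in the paired test), and 0.48 higher without day 60 graft 1.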

How the results depend on the processing

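Among the results of the 10 genes, the direction against isolated islets held under all 22 alternatives for the called genes, but not their calls. Genes called at day 60 numbered 9356 with array weights. Of the 10 genes, 3 were called at day 60 with no filter, upper-quartile scaling or only the libraries compared, 2 with quantile normalization (1 higher, 1 lower) and 9 with array weights (7 higher, 2 lower); with the sum scaling 3 were higher and 1 lower. At day 120, genes called numbered 8853 with array weights and 7571 without isolated islet 1 and day 60 graft 1; of the 10 genes, 4 were called with a pseudocount of 0.1 or the replicate block, 1 with no filter or upper-quartile scaling, 6 with only the libraries compared, and 8 with array weights or without those 2 libraries (7 higher and 1 lower in each). The replicate block changed 3 calls of the 10 genes, Angpt1 at day 60 and Tek and Vegfc at day 120, and no other; the numbers do not pair grafts with isolated islets. Between the times, genes called numbered 4 with no filter and 459 with array weights. The median of all genes at day 60, 0.27, was 0.13 with upper-quartile scaling, -0.03 after scaling to the sum without hormone and acinar genes and -0.04 with quantile normalization; at day 120, 0.30 became 0.17, 0.15 and 0.02. The share of calls that were higher was 71.8% at day 60 and 77.6% at day 120, against 45.2% and 45.6% with quantile normalization. Vegfa at day 60 reversed to -0.0714, -0.27 and -0.0554 under the 3 scalings, Flt1 at day 120 to -0.0301 with quantile normalization, and Angpt2 between the times to 0.0233 with the sum scaling. Without isolated islet 1 and day 60 graft 1, Nrp1 and Tek between the times reversed to 0.0815 and 0.0356 and the Kdr to Flt1 ratio to -0.10, and relative Kdr was -1.40 at day 60 (exact p = 0.1), -0.92 at day 120 and 0.48 between the times. Relative Kdr with the replicate block was 0.79 between the times (exact p = 0.125). With denominators chosen after seeing the data, relative Kdr with Cdh5 was -0.39 at day 60, 0.47 at day 120 and 0.86 between the times. With Pecam1 the same values were -1.23, -0.34 and 0.89. The causes were not tested.

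Leaving out 1 library at a time gave 4152 to 6950 genes called at day 60, 1986 to 6031 at day 120 and 2 to 21 between the times, and 3 to 6, 1 to 5 and 0 of the 10 genes. Log2 changes that crossed 0 ran from -0.12 to 0.62 for Vegfa at day 60, from -0.0141 to 0.35 for Flt1 and from -0.34 to 0.0698 for Kdr at day 120, and between the times from -0.44 to 0.0815 for Nrp1, -0.58 to 0.0356 for Tek, -0.099 to 0.0904 for Kdr over Flt1 and -0.22 to 0.0898 for relative Vegfa. Relative Kdr ran from -1.92 to -1.40, -0.98 to -0.87 and 0.48 to 0.99; 3 against 4 libraries cannot give an exact p under 0.0571. Depth is unknown, so what low genes such as Angpt1 can show is not set by any count.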
